A study of Mus musculus with 16 samples.

Results

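Cytochrome c oxidase, or COX, is the last enzyme of the mitochondrial respiratory chain. It takes electrons from cytochrome c, passes them to oxygen and pumps protons across the inner membrane. Its catalytic core is encoded by mitochondrial DNA, and the surrounding nuclear-encoded subunits help it to assemble and tune its activity. Several nuclear subunits exist in paired forms. A muscle form, often called the heart form, is made in heart and skeletal muscle, and a ubiquitous form, often called the liver form, is made in most other tissues and in immature muscle. Cox6a2, Cox7a1 and Cox8b are the muscle forms of subunits 6a, 7a and 8, and Cox6a1, Cox7a2 and Cox8a are their ubiquitous partners. Cox4i1 is the general form of subunit 4, and Cox4i2 is a form known from lung and from perivascular cells, tied to the response to low oxygen. Cox7a2l, a relative of subunit 7a, takes part in joining complexes III and IV into supercomplexes.

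The 9 genes above were taken from the table of LV transcript levels by an exact match of the gene symbol. All 9 of the 9 were found among the 11811 listed genes, and all 9 averaged 0.5 FPKM or more over the libraries, as did the 11544 genes tested by genotype. RNA came from the LV of 8 TGAC8 mice and 8 WT mice, each giving 1 library, and the mice were 3-month-old males of the C57BL/6 strain. TGAC8 mice carry a cDNA of human adenylyl cyclase type 8, an enzyme that makes cAMP, and the α myosin heavy chain promoter restricts its expression to cardiac myocytes. WT mice do not carry the transgene. The unit, FPKM, divides sequenced fragments by transcript length and by the output of the library, so levels are already per length, but a very short transcript such as Cox8b (360 bases) depends more on the length model than a longer one.

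The human transgene transcript was listed at 411.5 to 602.4 FPKM in the 8 TGAC8 libraries and at 0 in 7 WT libraries, with 0.35 FPKM in the remaining WT library. The 16 libraries had no 2 identical sets of values, and their scale was open. Geometric scaling, in which a library is divided by the median of its ratios to a mean library, used factors of 0.974 to 1.115 in TGAC8 and 0.935 to 1.009 in WT. The median log2 fold change over the tested genes was 0.01 with it, against 0.12 as deposited. Fold changes are TGAC8 over WT on log2(FPKM + 0.1), tested with limma and adjusted by Benjamini-Hochberg over all tested genes at 0.05. Ratios between 2 genes of the same library do not depend on a scale factor and were therefore the main measure of the balance between forms.

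The paired forms are related in sequence, and reads could only be divided between them where the sequences differ. The coding sequences of Cox6a2 and Cox6a1 were 66.8% identical over 277 aligned bases in the GENCODE M21 annotation of mm10. Those of Cox7a1 and Cox7a2 were 66.2% identical over 237 aligned bases, and those of Cox8b and Cox8a were 70.1% identical over 174. The longest run without a difference was 12, 12 and 10 bases in the 3 pairs, all under the read length of 75 bases. The stretch of 36 bases with the best match in each pair is shown to make this visible, 5′ to 3′ on the coding strand, with the bases that differ between partners in capitals and every other base shared.

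Cox6a2: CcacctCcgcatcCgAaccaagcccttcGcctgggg
Cox6a1: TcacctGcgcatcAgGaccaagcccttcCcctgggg
Cox7a1: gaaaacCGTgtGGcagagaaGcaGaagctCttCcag
Cox7a2: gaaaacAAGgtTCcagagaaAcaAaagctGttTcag
Cox8b: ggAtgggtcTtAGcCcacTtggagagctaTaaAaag
Cox8a: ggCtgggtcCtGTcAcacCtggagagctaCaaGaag

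These stretches lie at bases 189 to 224 of the Cox6a2 coding sequence and 234 to 269 of that of Cox6a1, at bases 94 to 129 of Cox7a1 and 73 to 108 of Cox7a2, and at bases 163 to 198 of Cox8b and 166 to 201 of Cox8a. Even there the partners differed at 5, 9 and 8 of the 36 bases, and no annotated transcript of one partner matched the other over 75 bases at 95% identity. On mm10, Cox6a2 lies on chromosome 7 from 128205435 to 128206387 on the minus strand, wholly inside the plus-strand gene Itgad, and Cox6a1 lies on chromosome 5 from 115345642 to 115348981 on the minus strand. Cox7a1 is on chromosome 7 from 30184144 to 30186078, Cox7a2 on chromosome 9 from 79755361 to 79759878, Cox8b on chromosome 7 from 140898945 to 140900446 and Cox8a on chromosome 19 from 7215153 to 7217616. The library kit keeps the strand, but no source used here tells whether strand entered the FPKM. Itgad itself had no row in the table. The remaining 3 genes are Cox4i1 on chromosome 8 from 120668222 to 120674207, Cox4i2 on chromosome 2 from 152754173 to 152765037 and Cox7a2l on chromosome 17 from 83501918 to 83517330. Cox4i1 overlaps Emc8 on the opposite strand, the table gave Cox4i2 a locus that also spans its neighbor Bcl2l1, and Cox7a2l has 1 near-identical pseudogene, so these 3 values are less certain. The same holds for Cox6a2, to which the table gave a locus from 128173932 to 128206366, far longer than the gene itself, and any part of other transcripts in its value was not tested.

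In the LV of both genotypes the muscle forms were by far the more abundant transcripts. The mean levels ran in the same order in TGAC8 and in WT. Cox7a1 came first with 2032 ± 197 FPKM in TGAC8 and 1998 ± 151 FPKM in WT (SD, n = 8 each). Cox8b followed with 1487 ± 114 FPKM in TGAC8 and 1530 ± 104 FPKM in WT. Cox6a2 came next, and its range overlapped that of Cox8b in both genotypes although Cox8b was the higher of both in all 8 TGAC8 and all 8 WT libraries. Cox4i1, the general form of subunit 4, followed with 840.2 ± 49.6 FPKM in TGAC8 and 834.7 ± 31.4 FPKM in WT. The ubiquitous Cox7a2 stood well below it, and Cox8a and Cox6a1 were neighbors. Cox8a exceeded Cox6a1 in 4 of 8 TGAC8 libraries and in 7 of 8 WT libraries, so that their order was not set in TGAC8. Cox7a2l and Cox4i2 were the lowest. Every other neighboring pair in this order was separated in all libraries of both genotypes, with ranges that did not overlap.

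**Figure D1:**
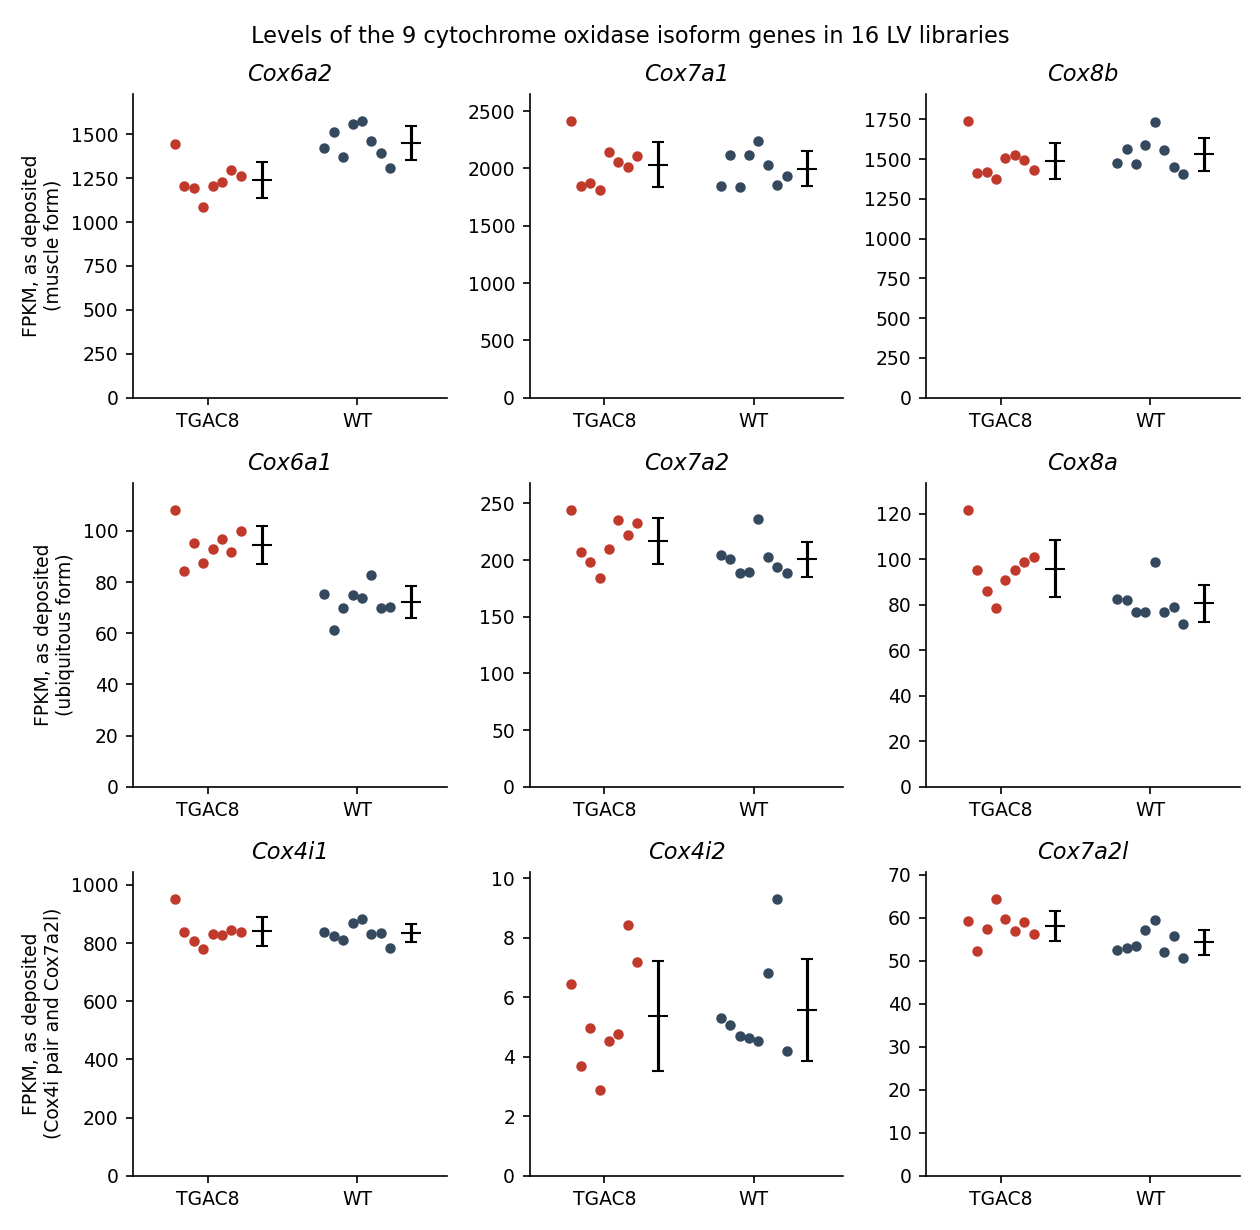
FPKM as deposited of the 9 genes in each library, with TGAC8 (red, left) and WT (dark, right) in every panel, 1 point per library, and the black mark the mean with its SD (n = 8 per genotype). Cox6a1 is the panel in which the genotypes do not overlap, with 84.3 to 108.2 FPKM in TGAC8 and 61.2 to 82.6 FPKM in WT.

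Cox6a1, the ubiquitous form of subunit 6a, rose in TGAC8. Its level ran from 84.3 FPKM over a median of 94.2 to 108.2 FPKM in TGAC8, against 61.2, 71.9 and 82.6 FPKM as the lowest, median and highest values in WT. All 8 TGAC8 libraries lay above all 8 WT libraries, which was the case, in either direction, for 5.93% of the tested genes. The libraries come from whole tissue, where more cells of a type and more RNA per cell cannot be told apart. The log2 fold change was 0.39 ± 0.06 (SE), a difference of 31.1%, with a limma adjusted p of 0.00011. With geometric scaling it was 0.27 with an adjusted p of 0.00062, and the genotypes still did not overlap, as for 5.99% of the tested genes on that scale.

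Its muscle partner Cox6a2 moved the other way. The Cox6a2 level was 1084 FPKM at its lowest, 1219 at the median and 1445 at its highest in TGAC8, against 1307, 1444 and 1575 FPKM in WT. The genotypes overlapped through TGAC8 library 1, the highest of its genotype, which exceeded 4 WT libraries. The log2 fold change was −0.23 ± 0.06 with an adjusted p of 0.0082, and −0.34 with an adjusted p of 4.8e-05 after geometric scaling, when the genotypes no longer overlapped. Quantile normalization, which keeps only the rank of a gene in its library, turned the direction to 0.15 with an adjusted p of 0.37. The median rank of Cox6a2 by level was 36 in TGAC8 and 39 in WT. Its position among the most abundant transcripts was therefore slightly higher in TGAC8, while its FPKM was lower.

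Among the other forms, Cox8a, the ubiquitous form of subunit 8, rose as deposited. It had 78.4, 95.3 and 121.6 FPKM as the lowest, median and highest values in TGAC8, against 71.4, 78.1 and 98.9 FPKM in WT, with overlap between the genotypes. The log2 fold change of Cox8a was 0.25 ± 0.08 with an adjusted p of 0.026. The call ended with geometric scaling (0.13, adjusted p of 0.18), with an exact rank-sum test for each gene (adjusted p of 0.059) and without WT library 8 (0.20, adjusted p of 0.054).

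The muscle form of the same subunit, Cox8b, was not called as deposited. It had 1372, 1461 and 1738 FPKM in TGAC8 and 1405, 1516 and 1734 FPKM in WT as lowest, median and highest values, which is nearly the same range. The log2 fold change of −0.04 had a 95% interval of −0.16 to 0.08 and an adjusted p of 0.62. Geometric scaling gave −0.16 with an adjusted p of 0.014.

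Of 12 listed markers of cardiac myocytes 11 had a row, and Myh6 had none. The 11 were present in all libraries, at levels that ranged widely. Nkx2-5 was at 20.39 to 27.99 FPKM in TGAC8 and 12.94 to 18.71 FPKM in WT. Myl2 was at 5145 to 6379 FPKM in TGAC8 and 7375 to 8129 FPKM in WT. Of these 11, 2 were called higher (Ryr2 and Nkx2-5) and 3 lower (Myl2, Myl3 and Tnnc1). Geometric scaling added Tnnt2, Tnni3, Mybpc3 and Pln to the lower ones (7 in all). The summed level of the 11 was 21110 to 25880 FPKM in TGAC8 and 26040 to 28400 FPKM in WT. Of 12 fibroblast markers 11 were called higher, with a sum of 420.6 to 680.9 FPKM in TGAC8 and 346.3 to 390.2 FPKM in WT, which did not overlap. Of 12 markers of macrophages and monocytes 8 were called higher, with sums of 69.9 to 93.6 FPKM in TGAC8 and 49.7 to 71.5 FPKM in WT. Of 12 markers of pericytes and smooth muscle 3 were called higher, and 2 with geometric scaling and by the rank-sum test. The sums of these 12 were 220.5 to 299.6 FPKM in TGAC8 and 196.1 to 228.2 FPKM in WT. Over all tested genes 20.9% were called higher and 4.65% lower as deposited, and 9.72% and 10.8% with geometric scaling. The count for pericytes and smooth muscle was near that share. Of 12 endothelial markers 0 were called by limma, 1 had an unadjusted p under 0.05 and 0 were called by the rank-sum test, with sums of 513.3 to 724.8 FPKM in TGAC8 and 553.1 to 597.7 FPKM in WT. Most fibroblast and macrophage markers were thus higher in the genotype in which Cox6a1 and Cox8a were higher. The myocyte markers did not move together, with a median log2 fold change of −0.06 as deposited. Their sum was lower in TGAC8 along with the very abundant Myl2 (mean 5878 FPKM, against 7600 in WT), Myl3 (2760 against 3889) and Tnnc1 (1219 against 1550). The sum therefore does not speak for the list as a whole. Any part of these cell types in the differences of Cox6a1, Cox8a and Cox6a2 was not tested. Brown fat, another tissue rich in Cox7a1 and Cox8b, could not be judged. Of 10 adipocyte markers 2 (Pnpla2 and Cidea) had a row, and Ucp1 was not among them. The sums of these 2 were 48.7 to 59.1 FPKM in TGAC8 and 53.6 to 65.3 FPKM in WT. As deposited, 1 of the 2 was called lower by limma and by the rank-sum test, where limma called 4.65% of all genes lower. So few markers can neither show nor exclude brown fat.

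Neither gene of the subunit 7a pair was called by genotype. Cox7a1 had 1814, 2031 and 2412 FPKM in TGAC8 and 1840, 1981 and 2237 FPKM in WT as lowest, median and highest values. Its log2 fold change was 0.02 (95% interval −0.11 to 0.16, adjusted p of 0.83), and −0.09 with an adjusted p of 0.19 after geometric scaling. Cox7a2 had 184.2, 216.3 and 244.1 FPKM in TGAC8 and 188.2, 197.6 and 235.8 FPKM in WT. Its log2 fold change was 0.11 with an adjusted p of 0.20, and −0.01 with an adjusted p of 0.95 after geometric scaling. Both genes overlapped widely between the genotypes.

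Cox7a2l averaged 58.2 ± 3.4 FPKM in TGAC8 and 54.3 ± 2.9 FPKM in WT. Its log2 fold change was 0.10 with an adjusted p of 0.11, and −0.02 with an adjusted p of 0.81 after geometric scaling. It took 2.54 ± 0.28% of the summed FPKM of the 3 subunit 7a genes in TGAC8 and 2.42 ± 0.14% in WT. The transcript thus remained a small part of this family in both genotypes.

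Neither of the subunit 4 genes was called as deposited. Cox4i1 had a log2 fold change of 0.01 (95% interval −0.08 to 0.10, adjusted p of 0.91), which became −0.11 with an adjusted p of 0.042 after geometric scaling and 0.26 with an adjusted p of 0.011 after quantile normalization. Its direction therefore followed the scale, and the call with geometric scaling was lost in 11 of 16 fits without 1 library (adjusted p up to 0.081). Cox4i2 was the most variable of the 9 genes, with 2.87, 4.85 and 8.42 FPKM in TGAC8 and 4.18, 4.87 and 9.30 FPKM in WT as lowest, median and highest values. Its coefficient of variation was 34.6% in TGAC8 and 30.7% in WT, against 3.8 to 13.2% for the other 8 genes. A log2 fold change of −0.08 with a 95% interval of −0.51 to 0.35 (adjusted p of 0.80) leaves a wide range of differences that these libraries could not resolve.

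Counted over the 9 genes, 2 were called higher (Cox6a1 and Cox8a) and 1 lower (Cox6a2) as deposited. Over all tested genes, 20.9% were called higher and 4.65% lower, so the count of members called higher was near the share of all genes. With geometric scaling 1 gene was called higher (Cox6a1) and 3 lower (Cox6a2, Cox8b and Cox4i1), where 9.72% of all genes were higher and 10.8% lower. The median log2 fold change over the 9 genes was 0.02 as deposited, against 0.12 over all tested genes, and −0.09 with geometric scaling, against 0.01. The members called on both scales were Cox6a1 and Cox6a2, which are partners and moved in opposite directions.

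The ratio of muscle to ubiquitous form was then computed in each library. In subunit 6a it was 12.4 at its lowest, 12.8 at the median and 14.3 at its highest in TGAC8, against 17.7, 19.8 and 24.7 in WT. No TGAC8 library reached the lowest WT ratio. How often ratios between other genes separate by genotype was not computed, for this pair or for subunit 8 below. The mean log2 ratio of Cox6a2 to Cox6a1 was 3.71 ± 0.08 in TGAC8 and 4.33 ± 0.15 in WT (SD, n = 8 each), a difference of −0.62 ± 0.06 (SE), so that the ratio in TGAC8 decreased by 34.8% vs WT. The 2-sided exact permutation test over the 16 libraries gave p = 0.000155, the smallest value that 8 against 8 libraries allow, and 0.00039 after adjustment over the 5 ratios computed. On the deposited scale the numerator Cox6a2 had a log2 fold change of −0.23 and the denominator Cox6a1 one of 0.39, and both lower the ratio. Cox6a2 made up 92.5 to 93.5% of the summed FPKM of the pair in TGAC8 and 94.7 to 96.1% in WT, so the muscle form remained the main transcript in every library.

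**Figure D2:**
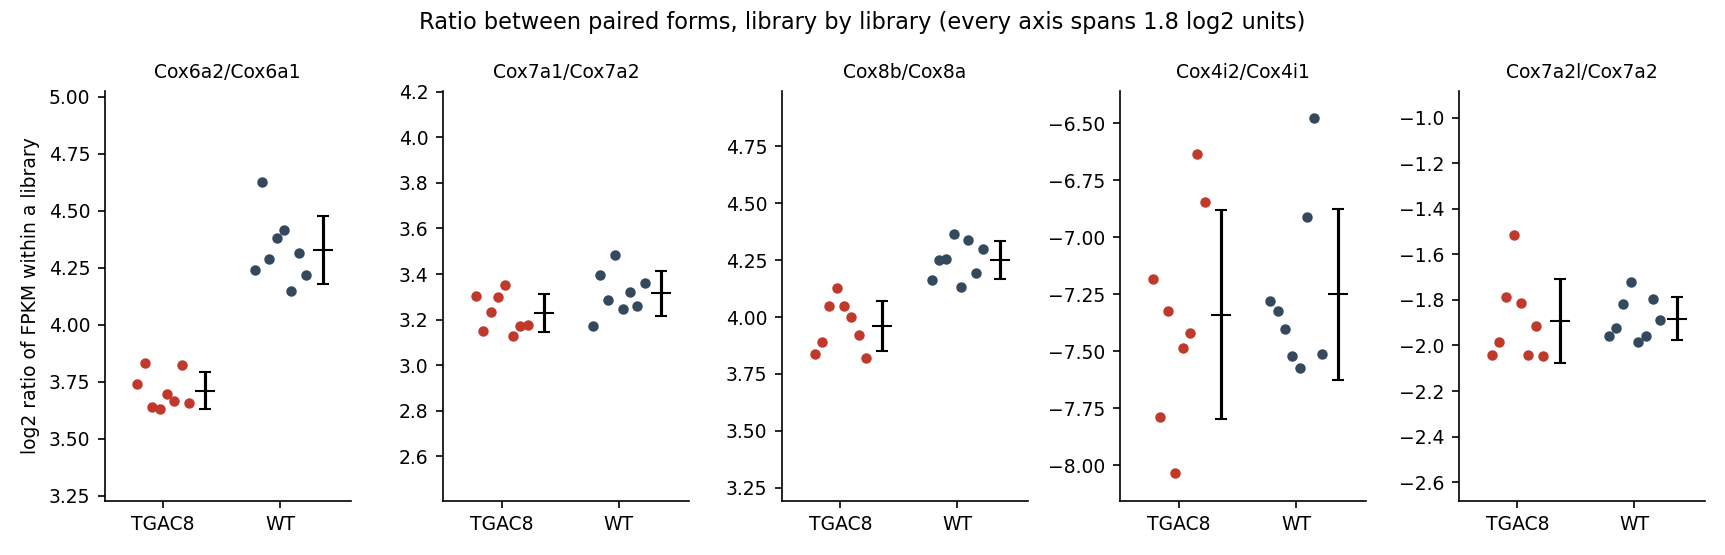
Log2 ratio of FPKM between paired forms in each library, TGAC8 (red, left) and WT (dark, right), with the mean and SD in black (n = 8 per genotype) and axes of equal span. The Cox6a2/Cox6a1 ratios are 3.63 to 3.83 in TGAC8 and 4.15 to 4.62 in WT, and the Cox8b/Cox8a ratios separate by a narrow margin.

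Subunit 8 showed a smaller difference in the same direction. The ratio of Cox8b to Cox8a was 14.2, 15.6 and 17.5 as lowest, median and highest in TGAC8, against 17.5, 19.1 and 20.6 in WT. The highest TGAC8 ratio (17.52, library 4) lay just under the lowest WT ratio (17.54, library 5). On the log2 scale the mean was 3.96 ± 0.11 in TGAC8 and 4.25 ± 0.08 in WT, a difference of −0.29 ± 0.05, so that the ratio decreased by 18.1% vs WT (exact permutation p = 0.000155, adjusted over the 5 ratios 0.00039). Cox8b made up 93.4 to 94.6% of the summed FPKM of its pair in TGAC8 and 94.6 to 95.4% in WT.

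In subunit 7a the ratio of Cox7a1 to Cox7a2 was 8.7, 9.2 and 10.2 in TGAC8 and 9.0, 9.9 and 11.2 in WT, and the genotypes overlapped. The difference of the mean log2 ratio was −0.09 ± 0.05 (exact permutation p = 0.073, adjusted 0.12), and 6 of 8 TGAC8 libraries lay under the WT median. Without WT library 1, the lowest WT ratio, the difference was −0.11 with an adjusted p of 0.046. The ratio of Cox4i2 to Cox4i1 differed by −0.09 ± 0.21 (p = 0.68) and that of Cox7a2l to Cox7a2 by −0.01 ± 0.07 (p = 0.88) in the same exact permutation test. Cox4i2 was 0.63 ± 0.21% of the summed FPKM of its pair in TGAC8 and 0.66 ± 0.20% in WT.

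The 3 muscle pairs did not shift by the same amount. The change of the Cox6a2/Cox6a1 ratio by genotype exceeded that of Cox7a1/Cox7a2 by −0.53 ± 0.07 on the log2 scale (exact permutation p = 0.000155, adjusted over the 3 differences 0.00047). It exceeded the change of Cox8b/Cox8a by −0.33 ± 0.09 (p = 0.0026, adjusted 0.0026, exact permutation test). The change of Cox7a1/Cox7a2 less that of Cox8b/Cox8a was 0.20 ± 0.04 (p = 0.00031, adjusted 0.00047, exact permutation test). On the scale as deposited the shifts thus ran from subunit 6a over subunit 8 to subunit 7a, and leaving out any single library kept all 3 differences past the threshold. These ratios hold for any factor applied to a whole library. Quantile normalization does not act by a factor, and after it the 6a ratio differed by −0.24 (exact permutation p = 0.042, adjusted 0.11) and the 8 ratio by −0.0035 (p = 0.95), so neither call remained. The 7a ratio then differed by −0.025, and the change of 7a less that of 8 turned to −0.021 (exact permutation p = 0.77), so the order of these 2 pairs was not kept.

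Within a genotype the 3 ratios were not shown to vary together. Over the 8 TGAC8 libraries Pearson's r was −0.30 between the 6a and 7a ratios, −0.52 between the 6a and 8 ratios and 0.38 between the 7a and 8 ratios, and over the 8 WT libraries it was 0.35, −0.20 and 0.81. Spearman's rho was −0.26, −0.55 and 0.24 in TGAC8 and 0.17, −0.36 and 0.81 in WT. The exact permutation p was 0.45, 0.20 and 0.34 for r in TGAC8 and 0.40, 0.65 and 0.015 in WT, and the lowest became 0.087 after adjustment over the 6 relations. For rho the exact permutation p was 0.54, 0.17 and 0.58 in TGAC8 and 0.70, 0.39 and 0.022 in WT, with a lowest adjusted value of 0.13. Without the 2 libraries farthest from the median of the first ratio named, r was 0.37, −0.57 and 0.70 in TGAC8 and 0.27, −0.08 and 0.63 in WT. The relation of the 7a and 8 ratios in WT was the closest and did not pass the correction.

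Some libraries were high or low for most of the members of their genotype. TGAC8 library 1 held the highest value of its genotype for 7 of the 9 genes and lay above the genotype mean for all 9, and TGAC8 library 4 held the lowest value for 7, although it was the highest for Cox7a2l. Among WT, library 5 was the highest for 7 genes and library 8 the lowest for 7. After geometric scaling, TGAC8 library 1 still lay above the mean for 8 of the 9 genes and WT libraries 3 and 8 below it for all 9. The sum of the 9 genes made up 1.64 to 2.1% of all summed FPKM in the TGAC8 libraries and 1.43 to 1.93% in the WT libraries.

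**Figure D3:**
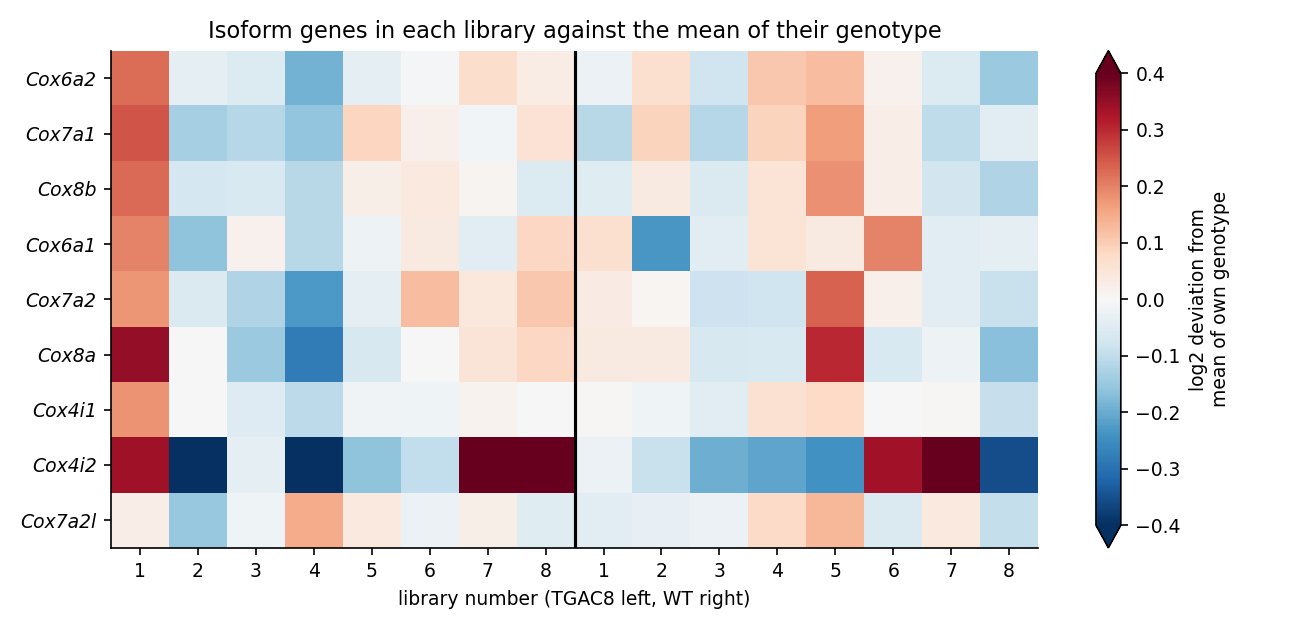
Log2 deviation of each of the 9 genes (rows) from the mean of its own genotype in each library (columns, TGAC8 left and WT right of the line), on FPKM as deposited, with red above and blue below the mean and colors capped at 0.4. TGAC8 library 1 is above the mean in all 9 rows and WT library 8 below it in all 9 rows, while Cox4i2 varies most.

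Deviations from the genotype mean after geometric scaling were compared over the 16 libraries, as a description, since all genes of a library share its RNA and its preparation. The muscle forms followed each other, with r of 0.83 between Cox6a2 and Cox8b, 0.76 between Cox7a1 and Cox8b and 0.71 between Cox6a2 and Cox7a1. They did not form a set of their own, since Cox6a2 was also close to Cox4i1 (0.84) and to the ubiquitous Cox8a (0.77). The ubiquitous Cox7a2 and Cox8a followed each other at 0.87, and Cox8a also followed its muscle partner Cox8b at 0.72. Cox6a1 and Cox4i2 were less close to any other member (at most 0.27 and 0.26). For Cox6a1, r was 0.20 to its partner Cox6a2, 0.20 to Cox7a2 and 0.11 to Cox8a. Cox7a2l had r between −0.43 and 0.06 to the other 8 genes. Over all tested genes, the transcripts most like Cox6a2 were Plekhf1 (r of 0.96), the COX subunit gene Cox7b (0.93) and the complex I subunit gene Ndufa3 (0.93). Cox8b was followed most closely by 2310040G24Rik (0.91), by Ndufab1 (0.90), the mitochondrial acyl carrier protein that is also a subunit of complex I, and by Cox7b (0.89). Cox7a1 was followed by Rpl22l1, Acyp2 and Ndufab1 (0.81 each). Cox8a had Atp5l, a subunit of ATP synthase (0.91), Cox7a2 (0.87) and Rpl36-ps2 (0.86) as its nearest genes, and Cox7a2 had Cox8a (0.87), Fam174b (0.82) and Tor3a (0.80). The nearest genes to Cox6a1 were Skiv2l2 (0.80), Fam73b (0.78) and Pagr1a (0.77), and those to Cox4i2 were Smarcb1 (0.89), Gm4835 (0.84) and Tsr3 (0.81). None of the 3 nearest genes of Cox6a1 is a respiratory chain gene.

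The other COX subunits gave a frame for these changes. Of 14 subunits on the list, 9 had a row in the table. As deposited 0 of them were called higher and 1 lower by limma, where 20.9% and 4.65% of all genes were. The counts were 0 and 2 at an unadjusted p under 0.05 and 0 and 0 by the rank-sum test. The median log2 fold change of the 9 was −0.05. The subunit called by limma was Ndufa4, once assigned to complex I and now counted as a COX subunit. It had 273.1 ± 35.9 FPKM in TGAC8 and 314.5 ± 26.0 FPKM in WT (−0.21, adjusted p of 0.044). This call depended on single libraries, since it was lost in 11 of the 16 fits that left out 1 library (log2 fold change −0.26 to −0.18, adjusted p of 0.0081 to 0.087). The other abundant subunits Cox5a, Cox5b, Cox6b1, Cox6c, Cox7b and Cox7c had log2 fold changes of −0.06 to 0.02, none called. After geometric scaling 4 of the 9 were called lower, where 10.8% of all genes were. They were Cox5a (−0.17), Cox5b (−0.16), Cox6b1 (−0.16) and Ndufa4 (−0.33). Cox6b2, known as a testis form, was near the limit with 0.68 ± 0.53 FPKM in TGAC8 and 1.78 ± 1.12 FPKM in WT (adjusted p of 0.058).

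The 6 abundant subunits just named were also used as a scale, a choice made after seeing the data. Each library was divided by their geometric mean, so that a fold change reads as the change of a form relative to these 6 subunits. On this scale Cox6a1 (0.42, adjusted p of 4.6e-05), Cox8a (0.28, adjusted p of 0.00021) and Cox7a2 (0.14, adjusted p of 0.020) were called higher, where 23.1% of all genes were. Only Cox6a2 among the 9 was called lower (−0.20, adjusted p of 0.00032), where 3.57% of all genes were. Cox7a1 had 0.05 and Cox8b −0.01, neither of them called. Relative to these 6 subunits, the members called higher were thus the 3 ubiquitous forms of the muscle pairs. Cox7a2l was added (4 genes) when TGAC8 library 1 was left out. The count of 3 among 9 was not far above the 23.1% of all genes called higher, so it does not set these forms apart. The median log2 fold change over all tested genes was 0.15 on this scale. The 0.14 of Cox7a2 was therefore no larger than the change of a typical gene.

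**Figure D4:**
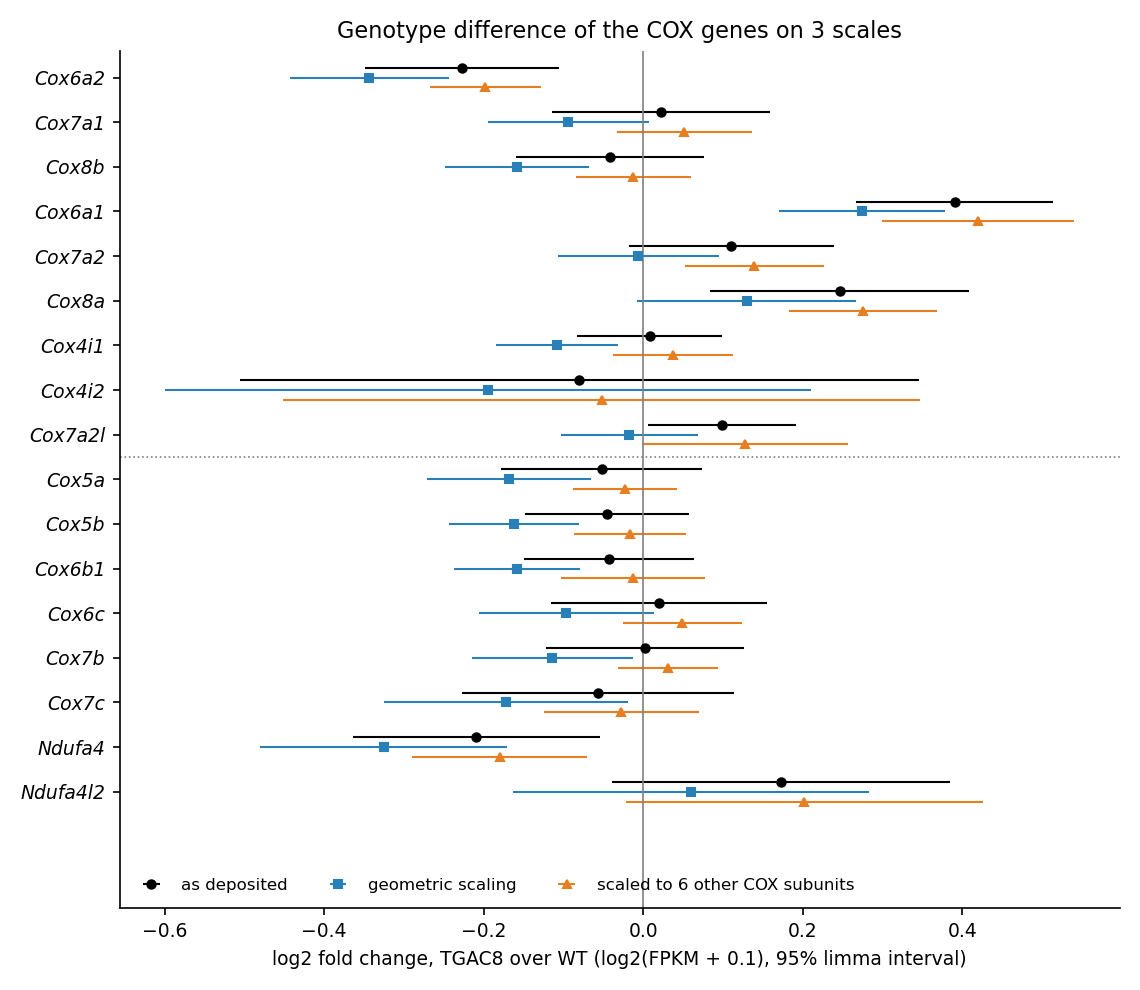
Log2 fold change (TGAC8 over WT, with its 95% limma interval) of the 9 genes above the dotted line and of 8 other COX subunits below it, as deposited (black circles), with geometric scaling (blue squares) and scaled to 6 other COX subunits (orange triangles). Cox6a1 lies right of 0 and Cox6a2 left of 0 on all 3 scales, while the interval of Cox8a includes 0 with geometric scaling.

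Genes that build or surround the enzyme were counted in the same way. Of 28 listed COX assembly factors, 2 were called higher and 1 lower as deposited (20.9% and 4.65% of all genes), with a median of 0.03. With geometric scaling 1 was higher and 3 were lower (9.72% and 10.8% of all genes), with a median of −0.08. The 3 lower ones were Lrpprc, Cox20 (−0.32) and Surf1 (−0.28). Cox16, which takes part in the maturation of the catalytic subunits, had 12.1 ± 2.7 FPKM in TGAC8 and 7.8 ± 1.6 FPKM in WT (0.64, adjusted p of 0.0033), but it shares its locus with Synj2bp, so its reads are uncertain. Coa5 had 18.7 ± 1.7 FPKM in TGAC8 and 16.2 ± 0.9 FPKM in WT (0.20, adjusted p of 0.015), a call that ended with geometric scaling (0.09, adjusted p of 0.33). Lrpprc, which stabilizes mitochondrial messages including those of the catalytic COX subunits, had 25.7 ± 1.4 FPKM in TGAC8 and 31.2 ± 1.5 FPKM in WT (−0.28, adjusted p of 0.00012) with no overlap. Of 10 genes of complex III and cytochrome c, 0 were called in either direction as deposited by limma, with a median of 0.05. Of all genes 20.9% were called higher and 4.65% lower. At an unadjusted p under 0.05, 2 of the 10 were higher and 1 lower, and 1 was higher by the rank-sum test. With geometric scaling 3 were lower (Uqcrc1, Uqcrc2 and Uqcr11), where 10.8% of all genes were.

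Among 21 regulators known to act on COX genes, 3 were called higher and 1 lower as deposited, with a median of 0.01. Over all tested genes 20.9% were higher and 4.65% lower. With geometric scaling 2 regulators were higher and 4 lower, with a median of −0.11, where 9.72% and 10.8% of all genes were. The 4 lower on that scale were Hif1a, Rbpj and the muscle factors Mef2a (−0.19, adjusted p of 0.014) and Mef2c (−0.17, adjusted p of 0.047). Mef2d, a muscle transcription factor, had 18.4 ± 1.1 FPKM in TGAC8 and 15.2 ± 1.0 FPKM in WT (0.27, adjusted p of 0.00064). Esrra, a nuclear receptor that drives genes of oxidative metabolism, had 14.3 ± 1.2 FPKM in TGAC8 and 11.7 ± 1.0 FPKM in WT (0.29, adjusted p of 0.0025), and was not called with geometric scaling (0.17, adjusted p of 0.068). Hif1a, the oxygen-regulated factor known to act on the balance of the subunit 4 forms, had 12.5 ± 2.1 FPKM in TGAC8 and 16.6 ± 1.7 FPKM in WT (−0.41, adjusted p of 0.0038). Ppargc1a, the coactivator of mitochondrial biogenesis, had 21.8 FPKM in TGAC8 and 21.9 FPKM in WT on average and was not called (−0.01, adjusted p of 0.91).

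Promoter sequence from RefSeq (GRCm38.p6) was at hand for 6 of the 9 genes, over the 250 bases before each start. It was missing for Cox6a2, Cox4i1 and Cox4i2, so the promoters of Cox6a2 and Cox6a1 could not be compared. The E box (CANNTG, read on both strands, which is the same set of sites) was found in 5 of the 6, all but Cox6a1, and 66.2% of all 32851 promoters of that length held it. The cAMP response element (TGACGTCA, both strands), the ERR core site (AAGGTCA, both strands), the ETS site (CCGGAAGT, both strands) and the MEF2 site were matched in 0 of the 6, where 1.5%, 4.1%, 2.9% and 2.9% of all promoters held them.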

How the data were processed

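LV RNA of 8 TGAC8 and 8 WT mice was prepared with a stranded total RNA kit and read as single ends of 75 bases. The authors mapped the trimmed reads to mm10 joined to the human cDNA with TopHat (the submitters' processing notes name TopHat2 2.1.1) and computed FPKM with Cufflinks 2.1.1, and these deposited FPKM values were the start here. The deposited table also holds the authors' own Cuffdiff comparison (mean levels, fold change, test statistic, p and q), which was not used. FPKM carry no library depth, so precision rests on the spread between mice. No source used here names the gene annotation or the strand setting.

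The test was limma (version 3.58.1, R 4.3.3) with trended variances, on log2 of FPKM plus 0.1, for genes averaging 0.5 FPKM or more, and p was adjusted by Benjamini-Hochberg. On this scale the change of low genes is understated. On simulated data of 11487 genes with 50 changed genes at each fold, 30% of the 1.25-fold changes were found. The shares were 74% of the 1.5-fold, 90% of the 2-fold and 96% of the 4-fold changes. The simulation gave 151 calls against 2954 in the data. Its adjusted threshold was therefore stricter, and these shares need not hold for the real comparison. Ratios and their differences were tested with exact permutation tests, all 2-sided. Sequences and positions are from GENCODE M21, near-identical transcripts from BLAST+ 2.17.0. All 9 genes were named, as were called COX subunits, the 2 called genes with the largest rise and the 2 with the largest fall (mean of at least 1 FPKM) in each other list, and the 3 genes most like each of 7 members. Ppargc1a, Cox20, Surf1, Rbpj, Mef2a, Mef2c, the named myocyte markers, Uqcrc1, Uqcrc2, Uqcr11, Cox6b2 and the 6 subunits used as a scale were added after their values were seen. The members and lists were chosen with earlier results of these data known. Alternatives were other pseudocounts and filters, geometric and quantile scaling, the library number as a block, rank-sum tests and leaving out each library. Scaling to 6 COX subunits, quantile normalization of the ratios, and each scaling with a library left out were added after seeing the data.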

Additional observations from a re-analysis of the deposited data

Results flagged for a closer look

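Within a genotype, 4 of the sets of 8 values checked for the 9 genes, their ratios and 2 other subunits held a value that stood apart by a gap to its nearest neighbor that exceeded Dixon's critical value. Of 32 such sets, chance would give about 1 in 20. Cox4i1 reached 951.2 FPKM in TGAC8 library 1, where the next TGAC8 library had 846.6 FPKM. Cox8b reached 1738 FPKM in the same library, with 1526 FPKM next. Cox7a2 reached 235.8 FPKM in WT library 5, with 204.7 FPKM next, and Cox8a reached 98.85 FPKM in that library, with 82.32 FPKM next. Both libraries were the highest of their genotype for 7 of the 9 genes, and none of the 5 ratios was flagged in either.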

How the results depend on the processing

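Leaving out each library in turn gave 1 to 3 members called higher (1 without WT library 8, where Cox8a was lost) and 1 lower, and 2530 to 3131 calls among all genes. The Cox6a2/Cox6a1 difference ran from −0.64 to −0.57 and the Cox8b/Cox8a difference from −0.31 to −0.27, all past the threshold, and the Cox7a1/Cox7a2 difference from −0.11 to −0.064. Geometric scaling called 1 member higher and 3 lower, and 1 to 1 higher and 2 to 3 lower with a library left out. Scaling to the 6 other subunits with a library left out called 3 to 4 higher and 1 lower. The exact rank-sum test called 1 higher. Quantile normalization called 0 lower, turned Cox6a2 to 0.15 and the 7a less 8 difference to −0.021, and gave −0.24 for the 6a ratio and −0.0035 for the 8 ratio. Cox4i1 turned to −0.11 with geometric scaling, and to −0.12 to −0.10 with a library left out as well. The cause of these shifts was not tested. Same-numbered libraries did not deviate together (r of −0.06 to 0.01 across genes, 0 of 8 over 0.1). This gave no sign that the numbers pair the mice, but it cannot exclude a pairing that leaves no shared signal. With the library number as a block there were 2444 calls, with 2 members higher and 1 lower, and 1939 calls, with 1 member higher and 1 lower, with geometric scaling and the block, where Cox8b (adjusted p of 0.059) and Cox4i1 (0.12) were lost. Scaling to the 6 subunits with the block gave 2 higher and 1 lower, with Cox7a2 lost (0.058). The block took the limma adjusted p of Ndufa4 to 0.086 and that of the low gene Cox6b2 to 0.043. The other COX subunit called lower with the block was thus Cox6b2. In the paired sign-flip test the 6a and 8 ratios each had an exact p of 0.0078, the smallest possible for 8 pairs. Depth is unknown, and Cox4i2 was limited by its spread.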
